A study of Mus musculus with 12 samples.

Results

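The T cell receptor complex and its partners were followed through 10 genes, Cd3e, Cd3d, Cd3g, Cd247, Trac, Cd8a, Cd8b1, Cd4, Lck and Cd2, in bulk RNA sequencing of mouse oral tumours. They were the rows with these symbols, 10 of the 55401 genes of the expression table, and each symbol matched 1 row. The 12 libraries are labelled as tumours of MTC-Q1 oral cancer cells (Q1-2 in the titles), injected at the orthotopic site into C57BL/6 mice. The strain label is checked with the libraries. Each of 4 groups had 3 libraries. Ctrl-IgG mice received a control immunoglobulin and aCSF1R mice an antibody to CSF1R, the receptor through which macrophages receive their growth factor. IL-10-Fc is the cytokine interleukin-10 carried on an Fc fragment, and BF10 carries the same cytokine on the CSF1R antibody. Treatment began at a tumour size of 100 mm3, and the labels differ on the number of doses, with 4 in the design text and 6 under treatment. The labels give neither the age nor the sex of the mice behind each library, and do not say whether a library is 1 animal, so p-values measure the spread between these libraries. Levels are FPKM, fragment counts scaled to the length of the transcript and the size of the library.

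The receptor of an alpha-beta T cell is a pair of variable chains, whose constant parts are encoded by Trac for the alpha chain and by Trbc1 and Trbc2 for the beta chain, and which cannot signal on their own. They are carried to the surface with the CD3 gamma, delta and epsilon chains (Cd3g, Cd3d, Cd3e) and the zeta chain (Cd247), whose tails hold the tyrosines that the kinase Lck phosphorylates when the receptor meets its ligand. CD8 (Cd8a, Cd8b1) and CD4 (Cd4) bind MHC class I and class II and bring Lck to the receptor. CD2 is an adhesion receptor of T and NK cells, and in mice of B cells as well. Cd8a without Cd8b1 is also made by some dendritic cells, and Cd4 by some myeloid cells. In bulk tissue, fewer T cells and less T cell RNA per cell cannot be told apart.

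The signalling tails are shown first because they are what the CD3 and zeta chains have in common. The coding sequence of GENCODE M21 transcripts (GRCm38) was searched for closely spaced tyrosine codon pairs with a leucine or isoleucine codon 3 positions after each. This motif, the immunoreceptor tyrosine-based activation motif (ITAM), was found 1 time in each CD3 chain and 3 times in transcript Cd247-201 of Cd247. The other Cd247 transcript searched, Cd247-202, held 2, motifs 1 and 2 below. The tyrosine codons are in capitals.
Cd3e: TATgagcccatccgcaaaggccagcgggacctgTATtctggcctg
Cd3d: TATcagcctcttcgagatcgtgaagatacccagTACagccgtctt
Cd3g: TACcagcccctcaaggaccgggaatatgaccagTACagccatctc
Cd247 motif 1: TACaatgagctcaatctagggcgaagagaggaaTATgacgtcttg
Cd247 motif 2: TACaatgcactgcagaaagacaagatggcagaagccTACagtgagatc
Cd247 motif 3: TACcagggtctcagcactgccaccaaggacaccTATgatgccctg
The motifs were 45 bases long, except for motif 2 of Cd247 with 48 bases, and each of the 6 was split over 2 exons. They lie on chromosome 9 for Cd3e (45000440 down to 44999549), Cd3d (44986095 to 44986311) and Cd3g (44971268 down to 44970735), and on chromosome 1 for Cd247 (165856451 to 165861042 from motif 1 to motif 3).

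Cd3g, Cd3d and Cd3e are neighbours on chromosome 9 (GRCm38) within 40056 bases. Cd3g (44969572 to 44980431, minus strand) and Cd3d (44981786 to 44987339, plus strand) are transcribed away from each other with 1354 bases between them, and Cd3e (44998740 to 45009627, minus strand) follows after 11400 bases. Their promoter windows are shown because the 3 genes share a locus and a protein complex while their levels varied differently over the libraries. The windows are the 250 bases before each start in the RefSeq table (GRCm38.p6), 5′ to 3′ on the gene's strand, with the letters AGGAAG, searched on both strands as a core of ETS factor sites, in capitals. Cd3g spans chr9:44980432-44980681, Cd3d chr9:44981536-44981785 and Cd3e chr9:45009612-45009861.
Cd3g: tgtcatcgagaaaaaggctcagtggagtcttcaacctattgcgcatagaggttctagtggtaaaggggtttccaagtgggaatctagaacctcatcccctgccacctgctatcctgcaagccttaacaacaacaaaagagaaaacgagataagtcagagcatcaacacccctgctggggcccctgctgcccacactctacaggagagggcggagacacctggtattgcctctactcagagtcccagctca
Cd3d: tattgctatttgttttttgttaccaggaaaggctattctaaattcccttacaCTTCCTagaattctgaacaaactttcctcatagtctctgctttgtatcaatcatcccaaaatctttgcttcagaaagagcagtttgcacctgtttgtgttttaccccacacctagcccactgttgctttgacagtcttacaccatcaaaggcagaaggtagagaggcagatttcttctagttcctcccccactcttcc
Cd3e: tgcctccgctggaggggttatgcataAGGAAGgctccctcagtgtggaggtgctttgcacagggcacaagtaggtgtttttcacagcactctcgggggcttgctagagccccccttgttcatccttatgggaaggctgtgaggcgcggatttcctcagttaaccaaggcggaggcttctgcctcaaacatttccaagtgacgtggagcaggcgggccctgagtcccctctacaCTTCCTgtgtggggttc
AGGAAG occurred 2 times in the Cd3e window, 1 time in that of Cd3d and 0 times in that of Cd3g, and 29.5% of all 32851 windows held it. On both strands, none of the 3 held TGTGGT, searched for RUNX factors and found in 14.0% of all windows, and none held the TATA box letters TATAAA, found in 12.4% of all windows. Each had the E box letters CANNTG, found in 66.2%. The share of G and C was 57.2% for Cd3e, 51.6% for Cd3g and 41.2% for Cd3d, against a median of 52.4% over all windows. Cd247, Cd8a and Lck also had entries, 6 of the 10 genes in all, and the table held none for Cd8b1, Cd4, Trac and Cd2.

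Several properties of the libraries touch the results. The libraries fell into 2 sides: Xist, an RNA of the inactive X chromosome, did not exceed 0.04 FPKM in any of the 6 libraries labelled Ctrl-IgG or aCSF1R and reached 17.1 to 30.7 FPKM in the 6 labelled IL-10-Fc or BF10, and the MHC class II gene H2-Ea, which C57BL/6 mice do not transcribe, was at most 0.27 FPKM in the former and at least 552.8 FPKM in the latter. The epithelial keratin Krt18 was at most 0.09 FPKM in the former and at least 293.6 FPKM in the latter, in libraries labelled oral cancer throughout, so the 6 IL-10-Fc and BF10 libraries go against their strain label, and the sides differ under a shared tumour label. Treatment therefore cannot be told apart from these differences in any comparison between the sides, and only aCSF1R against Ctrl-IgG and BF10 against IL-10-Fc stay within a side. BF10 replicate 3 also held the Y-linked Eif2s3y at 3.29 FPKM, a gene at 0 to 0.05 FPKM in the other 5 libraries of its side. It was also the highest of its side for the Y-linked Ddx3y (1.31 FPKM), the NK receptor Klra4 (10.7 FPKM) and the receptor segment Trav15n-1 (3.13 FPKM). All of these were higher in the Ctrl-IgG and aCSF1R libraries, so this library held some RNA typical of the other side, and the cause was not tested. BF10 replicates 2 and 3 stood apart by B cell and lymph node genes, with 8 B cell genes summing to 199.96 and 110.9 FPKM against 0.94 to 10.1 FPKM in the other 10 libraries. Finally, 4 libraries had FPKM sums of 819001 to 976950 against 637596 to 701275 in the other 8, and mitochondrial shares of 6.57% to 9.04% against 2.99% to 3.61%. They were BF10 replicate 1, replicates 1 and 2 of IL-10-Fc, and replicate 2 of Ctrl-IgG. The titles also carry a code, numbered 1 to 7, whose meaning the labels do not give. It is 6 and 7 for BF10 replicates 2 and 3, 6 for replicate 3 of IL-10-Fc and of aCSF1R, 5 for Ctrl-IgG replicate 3, and 1 to 4 for the other 7 libraries, which include all 4 of high FPKM sum. Steps between low values placed the depth at about 19400000 to 28900000 assigned fragments, so that the highest and lowest of the 10 genes, counted on their longest transcripts, rested on about 1011 fragments (Lck) and 8 fragments (Cd4) in a library.

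RNA of the 10 genes was low in all groups and highest in BF10. Their summed level was 32.7, 26.0 and 25.6 FPKM in Ctrl-IgG replicates 1 to 3, 33.3, 32.7 and 25.4 in aCSF1R, and 36.7, 27.0 and 28.6 FPKM in IL-10-Fc. It was 45.0, 104.8 and 85.6 FPKM in BF10, so that every BF10 library was above all 9 others, with replicate 1 nearer to them than to its own group. All 10 genes had their highest group mean in BF10. In 9 of them, all but Cd3d, BF10 replicates 2 and 3 were the highest of the 12 libraries.

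**Figure D1:**
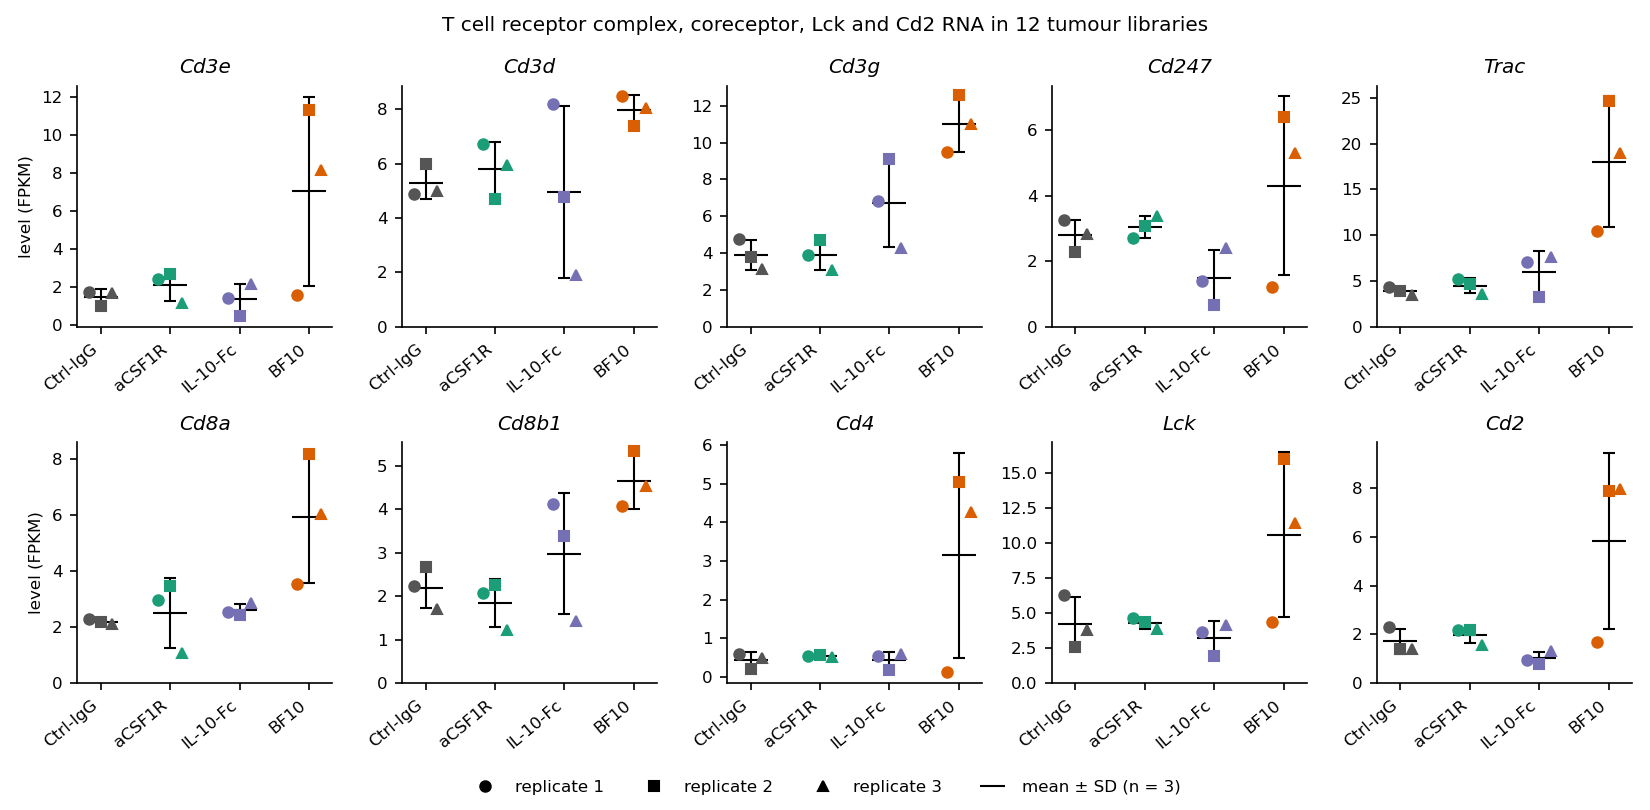
Level (FPKM) of the 10 genes in each of the 12 libraries, by group, with replicates 1 to 3 as circles, squares and triangles and the mean ± SD (n = 3) in black. BF10 replicates 2 and 3 sit above the other 10 libraries in every panel but that of Cd3d, and BF10 replicate 1 sits within the range of the other groups for Cd3e, Cd247, Cd8b1, Lck and Cd2 and is the lowest library for Cd4.

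Trac, the constant part of the alpha chain, had the largest difference of the 10 genes in log2(FPKM + 1) against Ctrl-IgG and against aCSF1R. By the ratio of group means in FPKM, Cd4 (3.14 in BF10 and 0.43 in Ctrl-IgG) rose more than Trac (18.0 and 3.92). It was 4.33, 3.93 and 3.49 FPKM in Ctrl-IgG, 5.19, 4.70 and 3.57 in aCSF1R, 7.03, 3.24 and 7.60 FPKM in IL-10-Fc, and 10.5, 24.7 and 18.9 FPKM in BF10. The BF10 libraries lay above all others, and replicate 1 was the lowest of them. Differences between groups were fitted with limma on log2(FPKM + 1), a scale that understates the change of low genes, and a gene is named as called where its adjusted p over all genes tested was under 0.05 and its change at least 1.5-fold. The log2 difference of BF10 was 1.44 (SE 0.35) from IL-10-Fc, 1.88 (SE 0.35) from Ctrl-IgG and 1.73 (SE 0.35) from aCSF1R, and it was called in the comparisons with Ctrl-IgG (limma adjusted p 0.00274) and aCSF1R (limma adjusted p 0.00429) and not in that with IL-10-Fc (limma adjusted p 0.478).

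Cd3e, the epsilon chain that pairs with both gamma and delta, varied 23.6-fold over the libraries. It was 1.74, 0.99 and 1.66 FPKM in Ctrl-IgG, 2.43, 2.68 and 1.14 in aCSF1R, 1.42, 0.48 and 2.14 FPKM in IL-10-Fc, and 1.58, 11.3 and 8.17 FPKM in BF10. Replicate 1 of BF10 lay inside the range of the other groups, and the mean of replicates 2 and 3 was 6.16 times its level. The log2 difference from IL-10-Fc was 1.56 (SE 0.52), with limma adjusted p values of 0.478 against IL-10-Fc, 0.0653 against Ctrl-IgG and 0.134 against aCSF1R. Without BF10 replicate 1 it was 2.25 (SE 0.36) and passed the test (limma adjusted p 0.0197).

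Cd3d, the delta chain, hardly varied between the BF10 libraries. It was 4.90, 5.98 and 4.99 FPKM in Ctrl-IgG, 6.71, 4.71 and 5.95 in aCSF1R, 8.18, 4.79 and 1.89 FPKM in IL-10-Fc, and 8.48, 7.37 and 8.03 FPKM in BF10. BF10 replicate 1 was the highest of the 12 libraries and IL-10-Fc replicate 3 the lowest. The log2 difference of BF10 from IL-10-Fc was 0.74 (SE 0.35) and from Ctrl-IgG 0.51 (SE 0.35), and Cd3d was called in no comparison.

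Cd3g, the gamma chain, had its highest values in BF10 and IL-10-Fc. It was 4.77, 3.81 and 3.15 FPKM in Ctrl-IgG, 3.92, 4.73 and 3.10 in aCSF1R, 6.85, 9.09 and 4.27 FPKM in IL-10-Fc, and 9.48, 12.6 and 10.98 FPKM in BF10. All BF10 libraries were above all 9 others, with a mean of 11.02 ± 1.56 FPKM (SD, n = 3). It was called against Ctrl-IgG (log2 difference 1.3, SE 0.27, limma adjusted p 0.00578) and aCSF1R (1.29, SE 0.27, limma adjusted p 0.00579), and differed from IL-10-Fc by 0.68 (SE 0.27, limma adjusted p 0.478).

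Cd247, the zeta chain, had a BF10 mean that rested on 2 libraries. It was 3.26, 2.30 and 2.83 FPKM in Ctrl-IgG, 2.7, 3.07 and 3.38 in aCSF1R, 1.41, 0.68 and 2.40 FPKM in IL-10-Fc, and 1.23, 6.40 and 5.30 FPKM in BF10. BF10 replicate 1 was lower than all 6 Ctrl-IgG and aCSF1R libraries and replicates 2 and 3 were higher than all of them. The log2 difference of BF10 from IL-10-Fc was 0.97 (SE 0.42), and with BF10 given by replicate 1 alone it was -0.10.

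The 2 chains of CD8 differed in how far they followed the other genes. Cd8a, the alpha chain, was 2.27, 2.19 and 2.10 FPKM in Ctrl-IgG, 2.95, 3.45 and 1.08 in aCSF1R, 2.55, 2.44 and 2.86 FPKM in IL-10-Fc, and 3.53, 8.17 and 6.01 FPKM in BF10. Cd8b1, the beta chain, was 2.23, 2.66 and 1.70 FPKM in Ctrl-IgG, 2.06, 2.25 and 1.21 in aCSF1R, 4.12, 3.38 and 1.42 FPKM in IL-10-Fc, and 4.06, 5.33 and 4.53 FPKM in BF10. The BF10 libraries were the 3 highest for Cd8a, while for Cd8b1 BF10 replicate 1 was below IL-10-Fc replicate 1. Cd8a was called against Ctrl-IgG (log2 difference 1.06, SE 0.32, limma adjusted p 0.0342) and aCSF1R (1.00, SE 0.32, limma adjusted p 0.0431), and Cd8b1 against aCSF1R (1.00, SE 0.30, limma adjusted p 0.0297). Against IL-10-Fc the differences were 0.88 (SE 0.32) for Cd8a and 0.57 (SE 0.30) for Cd8b1, and neither was called. The call of Cd8a against Ctrl-IgG ended without any 1 of the Ctrl-IgG libraries or without BF10 replicate 2 or 3 (limma adjusted p 0.0726 to 0.139), and that against aCSF1R without aCSF1R replicate 1 or 3 or BF10 replicate 2 or 3 (0.0720 to 0.164). The call of Cd8b1 ended without any 1 of the aCSF1R libraries or BF10 replicate 2 or 3 (limma adjusted p 0.0537 to 0.114), while those of Trac and Cd3g held without any 1 library. Other settings ended these calls as well: for Cd8a against Ctrl-IgG equal library sums, no filter and a fit of those groups alone (limma adjusted p 0.0649 to 0.0823), for Cd8a against aCSF1R the same and a pseudocount of 0.1 FPKM (0.0534 to 0.120), and for Cd8b1 median-of-ratios factors, quantile normalization and no filter (0.0505 to 0.0777). The genes lie on chromosome 6 (GRCm38), Cd8b1 at 71322788 to 71337494 and Cd8a at 71373427 to 71379173, both on the plus strand and 35932 bases apart.

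Cd4 RNA was low outside 2 libraries, on about 8 to 43 fragments. It was 0.60, 0.21 and 0.48 FPKM in Ctrl-IgG, 0.54, 0.57 and 0.51 in aCSF1R, 0.53, 0.17 and 0.58 FPKM in IL-10-Fc, and 0.12, 5.05 and 4.26 FPKM in BF10. BF10 replicate 1 was the lowest of the 12 libraries, on about 8 fragments, and replicates 2 and 3 were the only libraries above 1 FPKM. Cd4 thus failed the filter of at least 1 FPKM in 3 libraries that the other 9 genes passed, and the counts of called genes below refer to those 9. In a fit without the filter its log2 difference of BF10 from IL-10-Fc was 1.22 (SE 0.53, limma adjusted p 0.672). The ratio of Cd8a to Cd4 was 29.4 in BF10 replicate 1, 1.62 and 1.41 in BF10 replicates 2 and 3, and 2.12 to 14.4 in the other groups, and the log2(FPKM + 1) value of Cd8a minus that of Cd4 differed by -0.34 between BF10 and IL-10-Fc, within the spread of the BF10 libraries (2-sided exact permutation p 0.5, n = 3 each).

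Lck, the kinase, and Cd2, the adhesion receptor, varied over the libraries much as Cd3e did. Lck was 6.29, 2.55 and 3.81 FPKM in Ctrl-IgG, 4.66, 4.33 and 3.87 in aCSF1R, 3.63, 1.94 and 4.16 FPKM in IL-10-Fc, and 4.38, 16.01 and 11.4 FPKM in BF10. Cd2 was 2.32, 1.41 and 1.42 FPKM in Ctrl-IgG, 2.18, 2.19 and 1.58 in aCSF1R, 0.96, 0.80 and 1.3 FPKM in IL-10-Fc, and 1.68, 7.89 and 7.96 FPKM in BF10. In both, BF10 replicate 1 was above the 3 IL-10-Fc libraries and inside the range of Ctrl-IgG. The log2 differences of BF10 from IL-10-Fc were 1.34 (SE 0.42) for Lck and 1.57 (SE 0.41) for Cd2, neither called, and without BF10 replicate 1 Cd2 was called with 2.15 (SE 0.23, limma adjusted p 0.00247). Lck lies on chromosome 4 (129548344 to 129573641, minus strand), Cd2 on chromosome 3 (101275899 to 101287939, minus strand), Cd4 on chromosome 6 (124864692 to 124888221, minus strand), Cd247 on chromosome 1 (165788681 to 165877277, plus strand) and Trac on chromosome 14 (54220521 to 54224206, plus strand).

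The effect of the antibody by itself was read from aCSF1R and Ctrl-IgG. Of the 9 genes tested, 0 were called, where 0% of all 15813 genes tested were called (limma, 0 genes, with 437 at an unadjusted p under 0.05). The log2 differences ran from -0.18 (Cd8b1) to 0.30 (Cd3e), with a median of 0.10 against 0.11 over all genes tested, and 0 of the 9 genes had an unadjusted p under 0.05. The groups overlapped for all 9, whereas they did not for 14.9% of all genes tested.

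What the antibody adds to interleukin-10 was read from BF10 and IL-10-Fc, the only comparison with BF10 that stays within a side. BF10 replicate 3 nonetheless held some RNA typical of the other side. Again 0 of the 9 genes were called, where 0.0126% of all genes were (2 of 15813, with 828 at an unadjusted p under 0.05). All 9 differences were positive, from 0.57 to 1.57 with a median of 0.97 against 0.34 over all genes tested. The unadjusted p was under 0.05 for 7 of the 9, all but Cd3d and Cd8b1. Groups did not overlap for Cd3g, Trac, Cd8a, Lck and Cd2, 5 of the 9, against 5.18% of all genes tested. The size of the differences depended on the scaling and on the libraries and covariates used. Under quantile normalization the median of the 9 was 0.62 against 0.05 over all genes, with 0.06 for Cd8b1, 0.23 for Cd3g and 0.24 for Cd3d, and under median-of-ratios factors it was 0.70 against 0.04, with 0.20 for Cd8b1 and 0.27 for Cd3g. With a term that parts title codes 1 to 4 from 5 to 7 it was 0.88 against 0.24. In 2 fits chosen after the data were seen it fell further. It was 0.41 against 0.08 with the B cell list as a covariate, and 0.42 against 0.08 with BF10 given by replicate 1 alone. Without BF10 replicate 1, 3 of the 9 were called (Cd3e, Trac and Cd2) among 115 of all genes. Without the 4 libraries of high FPKM sum, a fit chosen after the data were seen that leaves 1 IL-10-Fc library, 2 were (Cd3d and Cd2) among 64 of all genes.

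The comparisons between the sides had many more called genes, so the counts are read beside those shares. IL-10-Fc against Ctrl-IgG, for the cytokine alone, called 0 of the 9 genes where 33.7% of all genes were called, with a median log2 difference of -0.12 against -0.39 over all genes. With median-of-ratios factors it was 0.23 against 0.01, so its sign depended on the scaling, as did the share of higher genes among all calls (30% and 49.9%). BF10 against Ctrl-IgG, for the fusion protein, called 3 of the 9 (Cd3g, Cd8a and Trac, all higher in BF10) where 24.9% of all genes were called, with a median of 1.06 against -0.12. BF10 against aCSF1R, for what the cytokine adds to the antibody, called 4 (the same 3 and Cd8b1, all higher in BF10) where 25% of all genes were called, with a median of 1.00 against -0.21. These last 2 share the BF10 libraries, and with BF10 given by replicate 1 alone 0 of the 9 genes were called in each, where 11.7% (1851) and 14.2% (2245) of all genes were. IL-10-Fc against aCSF1R called 0 where 42.2% of all genes were called, with a median of -0.33 against -0.51, which became 0.24 against 0.00070 with median-of-ratios factors, where the share of higher genes among all calls went from 26% to 48.6%.

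By its labels, the design also allows the antibody part to be averaged over both backgrounds. BF10 can likewise be set against the summed differences of antibody and cytokine. The backgrounds with and without the cytokine are also the 2 sides. This departure is therefore the antibody difference on one side minus that on the other. It cannot tell the cytokine from the side, so whether the effects of antibody and cytokine add was not resolved. The averaged antibody part called 0 of the 9 genes (0.00632% of all genes, 1 of 15813), with differences from 0.19 (Cd8b1) to 0.93 (Cd3e) and a median of 0.53 against 0.23. The departure called 0 of the 9 (0.00632% of all genes, 1 of 15813), with a median of 0.87 against 0.19, and 2 of the 9 had an unadjusted p under 0.05. Both counts became 1 without BF10 replicate 1, for Cd2, where all genes called also rose, to 49 (0.31%) and 28 (0.177%). Between aCSF1R, Ctrl-IgG and IL-10-Fc, 0 of the 9 genes were called in any of the 3 comparisons, so their order within a gene was not resolved.

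**Figure D2:**
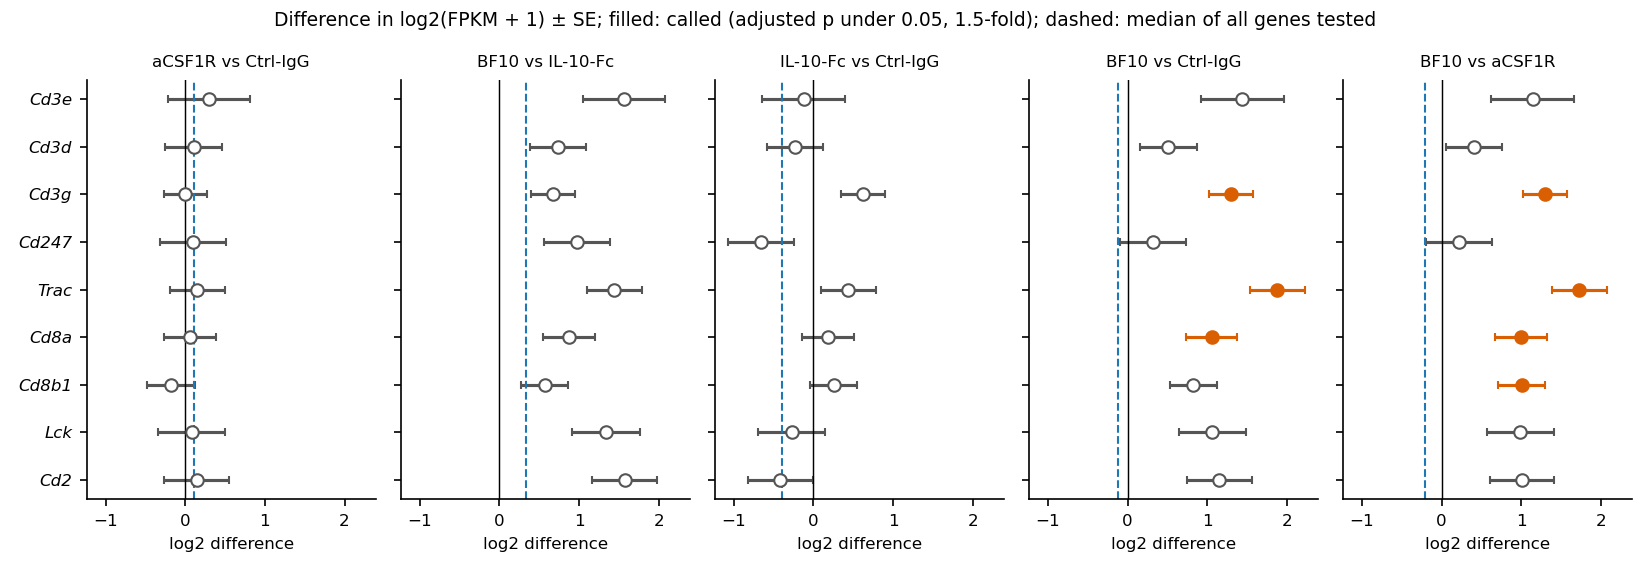
Difference in log2(FPKM + 1) between groups (horizontal axis, point and SE from limma) for the 9 genes that passed the filter, in 5 comparisons; filled orange points were called and the dashed line is the median of all genes tested. The points lie near 0 for aCSF1R against Ctrl-IgG and to the right of the dashed line in all 9 genes for BF10 against IL-10-Fc, where none was called.

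B cell and lymph node RNA moved with the 10 genes. The B cell list summed to 199.96 and 110.9 FPKM in BF10 replicates 2 and 3, against 1.59 FPKM in BF10 replicate 1, 0.94 to 3.10 FPKM in IL-10-Fc, 9.30 to 10.1 FPKM in aCSF1R and 6.30 to 9.66 FPKM in Ctrl-IgG. All 8 of its genes were above 0 in both libraries, led by Cd79a, a signalling chain of the B cell receptor, at 51.0 and 29.6 FPKM. The lymph node list summed to 280.5 and 198.7 FPKM in these libraries, 65.9 FPKM in BF10 replicate 1 and 0.70 to 48.9 FPKM in the other 9. Its chemokine Ccl21a was 106.6 and 101.5 FPKM in BF10 replicates 2 and 3 and 0.59 FPKM in BF10 replicate 1. The endothelial mucin Glycam1 of this list was 95.4, 49.6 and 0.73 FPKM in the same order. The 65.9 FPKM of BF10 replicate 1 thus came mostly from other genes of the list. With the B cell list as a covariate, chosen after the data were seen, the counts of called genes for BF10 were 0 against IL-10-Fc, 2 against Ctrl-IgG and 2 against aCSF1R. Of all genes, 1, 2887 and 3725 were called. The count against IL-10-Fc was 0 without the covariate too and could not fall. The medians of the 9 genes went from 0.97, 1.06 and 1.00 to 0.41, 0.57 and 0.46 in the same order, against 0.08, -0.27 and -0.36 over all genes. The log2 difference of Cd247 from IL-10-Fc was -0.09. The part of lymph node tissue in the levels of the 10 genes was not tested.

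**Figure D3:**
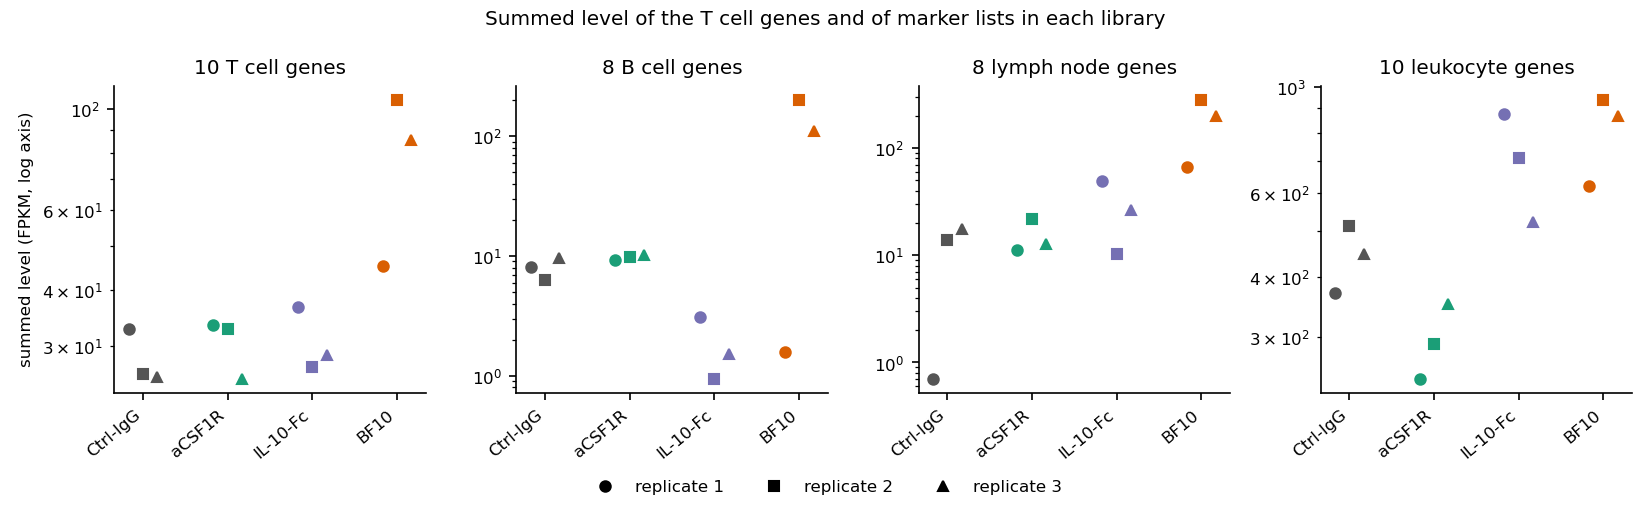
Summed level (FPKM, log axis) of the 10 T cell genes and of the B cell, lymph node and leukocyte lists in each library, by group. BF10 replicates 2 and 3 have 104.8 and 85.6 FPKM of the T cell genes and 199.96 and 110.9 FPKM of the B cell genes, whereas BF10 replicate 1 has 45.0 and 1.59 FPKM.

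Pan-leukocyte RNA was set beside the receptor complex. The leukocyte list (10 genes such as Ptprc and Coro1a) summed to 369.7 to 512.7 FPKM in Ctrl-IgG, 245.0 to 351.9 FPKM in aCSF1R, 521.6 to 878.2 FPKM in IL-10-Fc and 618.7 to 937.7 FPKM in BF10. Relative to this list, the receptor complex (mean log2(FPKM + 1) of Cd3e, Cd3d, Cd3g, Cd247 and Trac minus that of the list) was -2.59 ± 0.0615 in BF10 and -3.09 ± 0.126 in IL-10-Fc (SD, n = 3 each). The BF10 libraries, at -2.54, -2.57 and -2.65, lay above those of IL-10-Fc, at -2.96, -3.10 and -3.21, and on this scale BF10 replicate 1 did not stand apart. The difference was 0.51, with p = 0.1 by a 2-sided exact permutation test, which cannot go lower with 3 libraries a group, and 0.533 after adjustment over 8 such tests. aCSF1R was at -2.42 ± 0.348 and Ctrl-IgG at -2.85 ± 0.229, a difference of 0.44 (exact permutation p 0.2, n = 3 each).

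Some ratios between the chains set the 4 libraries of high FPKM sum apart from the other 8. Cd3d was 5.37 to 9.98 times Cd3e in the 4 libraries of high FPKM sum and 0.652 to 5.22 times in the other 8. Cd3g was 3.85 to 18.9 times Cd3e in the former and 1.11 to 2.74 times in the latter, and Trac 3.97 to 6.75 and 1.75 to 3.55 times. The ratio of Cd8b1 to Cd8a was 1.15 to 1.62 in the 4 libraries and 0.497 to 1.12 in the others. The ranges did not overlap for these 4 ratios, while those of Cd8a to Cd4 (4.81 to 29.4 and 1.41 to 6.05) and of Trbc1 and Trbc2 together to Trac (2.63 to 7.81 and 1.66 to 7.13) did. The 4 libraries came from 3 groups on both sides. Over protein-coding genes, those 4 libraries differed from the others of their side by a median log2 of -0.40 (Ctrl-IgG and aCSF1R) and -0.77 (IL-10-Fc and BF10) for the 4784 genes with a longest transcript of at least 4000 bases, and by 0.02 and 0.18 for the 728 genes under 1000 bases. Between these, the differences were -0.45 and -0.65 for 2000 to under 4000 bases and -0.33 and -0.28 for 1000 to under 2000 bases. On the side of IL-10-Fc and BF10 they thus fell with length in every class. On that of Ctrl-IgG and aCSF1R, where Ctrl-IgG replicate 2 is the only library of high sum, they fell up to 4000 bases and not beyond. The longest transcripts of Cd3g and Cd3e, 2539 and 2550 bases, are nearly equal in length. Without the 4 libraries, 8 of the 9 genes were called against Ctrl-IgG and 8 against aCSF1R, where 40.4% (6394) and 40.6% (6418) of all genes were. The part of RNA quality in these ratios was not tested.

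**Figure D4:**
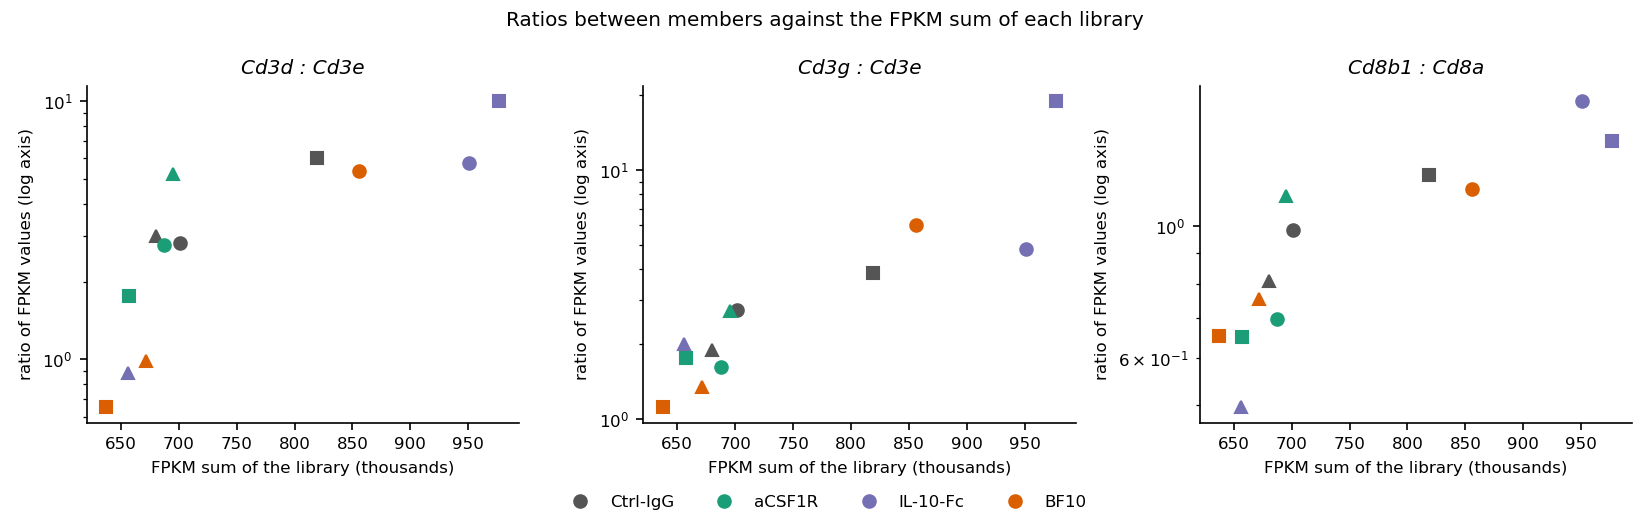
Ratio of FPKM values (log axis) of Cd3d to Cd3e, Cd3g to Cd3e and Cd8b1 to Cd8a against the FPKM sum of each library, coloured by group, with replicates 1 to 3 as circles, squares and triangles. The 4 libraries with sums of at least 819001 have the highest ratios in each panel, with Cd3d at 5.37 to 9.98 times Cd3e.

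Over the 12 libraries, after the mean of its own side was taken from each value, the 45 pairs of the 10 genes had Pearson's r of 0.13 to 0.96 with a median of 0.73. Cd3e had a median r of 0.94 with the other 9, Lck and Cd2 0.92 and Cd247 0.88. Cd3d had 0.30 and Cd8b1 0.48, and the lowest pair was Cd3d with Cd247. These values are descriptions, and they share the 2 BF10 libraries with B cell RNA and the 4 libraries of high FPKM sum.

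Other genes were ranked by how closely their pattern followed the mean of the 10. Among 12718 genes compared, the highest r was 0.98 for Tbc1d10c, a GTPase activator of lymphocytes, at 17.1 and 13.2 FPKM in BF10 replicates 2 and 3 and 2.05 to 6.66 FPKM in the other libraries. Blnk, an adaptor of the B cell receptor (r 0.96), Mzb1, a chaperone of immunoglobulin-secreting cells (r 0.96), and Pax5, the transcription factor that defines B cells (r 0.95), were among the first 5 with Ptprcap, a partner of the phosphatase CD45 (r 0.96). The other 7 were Gimap6, Traf3ip3, Tbc1d8, Rasal3, Lax1, Btla and Carmil2, with r from 0.93 to 0.95.

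The beta chain constant genes and the variable segments give a separate reading of the receptor. On the side of Ctrl-IgG and aCSF1R, Trbc1 was 9.09 to 18.7 FPKM and Trbc2 9.65 to 12.7 FPKM, so that their sum was 5.50 to 7.81 times Trac. In BF10 it was 2.49 to 2.65 times Trac in all 3 libraries, and in IL-10-Fc 3.84, 7.14 and 1.66 times. Trbc1 and Trbc2 share stretches of up to 259 identical bases, so the split between them is uncertain. Trbc2 was called against Ctrl-IgG (log2 difference 1.01, SE 0.30, limma adjusted p 0.0296) and aCSF1R (1.06, SE 0.30, limma adjusted p 0.0243).

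Alpha segments above 0 were many in 2 libraries and fewer in the rest. Of 130 alpha segments (Trav), 25 to 36 were above 0 in 10 libraries and 68 and 64 in BF10 replicates 2 and 3. In the 6 Ctrl-IgG and aCSF1R libraries, Trav15n-1 and Trav15d-1-dv6d-1, whose annotated transcripts of 349 bases are identical so that their reads cannot be told apart, held 69.5% to 83.8% of the summed Trav level. They held 0% to 5.71% in IL-10-Fc and 27.4% in BF10 replicate 3, where each was 3.13 FPKM, and at most 10.7% in the other BF10 libraries. Without this pair the Trav sum was 7 to 8.91 FPKM in Ctrl-IgG, 5.65 to 7.29 FPKM in aCSF1R, 4.29 to 5.80 FPKM in IL-10-Fc, and 7.17, 19.1 and 16.6 FPKM in BF10. Of 35 beta segments (Trbv), 12 to 18 were above 0 in the libraries of the other groups and 18, 19 and 18 in BF10. They summed to 4.23 to 7.73 FPKM in Ctrl-IgG, 3.77 to 6.67 FPKM in aCSF1R and 5.24 to 8.30 FPKM in IL-10-Fc, and to 14.9, 26.8 and 23.7 FPKM in BF10, whose 3 libraries lay above all others. The highest value of a beta segment was that of Trbv13-1, at 2.13, 5.18 and 2.34 FPKM in BF10 and at most 1.19 FPKM elsewhere.

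**Figure D5:**
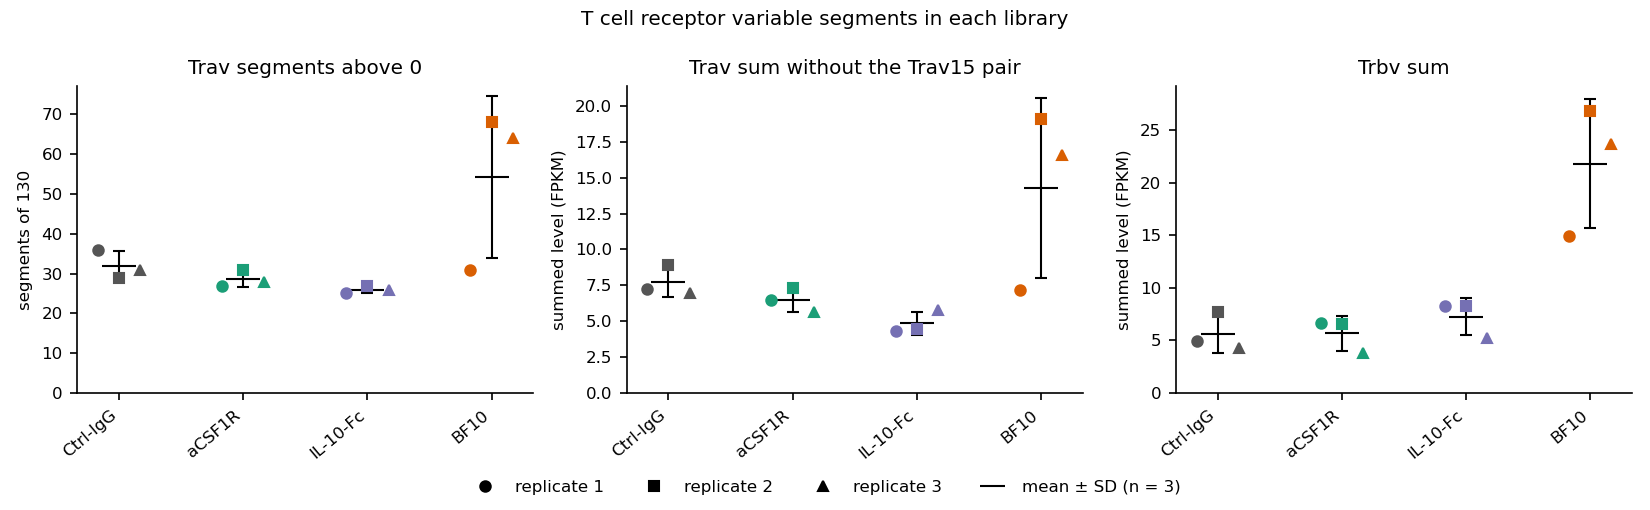
Trav segments above 0 (of 130), Trav sum in FPKM without the pair Trav15n-1 and Trav15d-1-dv6d-1, and Trbv sum in FPKM in each library, with mean ± SD (n = 3) per group. BF10 replicates 2 and 3 have 68 and 64 Trav segments against 25 to 36 elsewhere, and all 3 BF10 libraries have the highest Trbv sums.

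Gamma-delta T cells share several of the 10 genes, among them the CD3 chains, Cd247, Lck and Cd2, and NK cells share Cd247, Lck and Cd2. Trgc2, a gamma chain constant gene, was 0.30 to 0.65 FPKM on the side of Ctrl-IgG and 0.93 to 3.84 FPKM on that of BF10, and was called in all 4 comparisons between the sides, while the delta constant gene Trdc was 0.15 to 0.58 FPKM throughout. The NK receptor Klra4 was 41.7 to 147.6 FPKM on the Ctrl-IgG side, at most 2.02 FPKM in 5 libraries of the other side and 10.7 FPKM in BF10 replicate 3, and Ncr1, a receptor that defines NK cells, was 1.47 to 7.74 FPKM on the former side and 1.02 to 7.86 FPKM on the latter. The NK list of 8 genes summed to 69.8 to 187.0 FPKM in Ctrl-IgG, 59.4 to 77.5 FPKM in aCSF1R, 2.32 to 14.6 FPKM in IL-10-Fc and 3.77 to 18.9 FPKM in BF10. On the Ctrl-IgG side this sum is mostly Klra4, with 147.6 of the 187.0 FPKM in Ctrl-IgG replicate 2. Of the 7 tested genes of the list, 0 were called higher and 4 lower in BF10 against Ctrl-IgG, where 11.8% of all genes were called higher and 13.2% lower. The 4 were Klra4, Klra7, Klra8 and Klra9, and Ncr1 was not called, so the sum does not describe NK cells as a whole.

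The genes that carry the signal from the receptor were described by a list of 33, of which 30 passed the filter. In BF10 against IL-10-Fc, 0 were called, where 0.0126% of all genes were. All 30 differences were positive and their median was 0.79, in a fit where the median over all genes tested was also above 0, at 0.34. In BF10 against Ctrl-IgG, 3 were called higher (the adaptors Lat, with 1.51, SE 0.48, and Skap1, with 0.98, SE 0.32, and Csk, the kinase that restrains Lck, with 1.36, SE 0.41) and 1 lower (the adaptor Fyb, with -1.19, SE 0.29), which is no larger a share than that of all genes (11.8% higher and 13.2% lower). In BF10 against aCSF1R 4 were called higher, led by the phosphatase Ptpn6 with 2.13 (SE 0.51), and 1 lower, the adaptor Sh2d2a with -1.51 (SE 0.43), where 11% of all genes were higher and 14% lower. IL-10-Fc had 0 higher and 4 lower against Ctrl-IgG, among them the kinase Txk with -0.92 (SE 0.21), where 10.1% of all genes were higher and 23.6% lower. aCSF1R had 0 called against Ctrl-IgG, where 0% of all genes were, with a median of 0.01 against 0.11 over all genes. Many of these genes, Ptpn6, Csk and Fyb included, are also used by myeloid cells. The list summed to 336.1 to 350.6 FPKM in Ctrl-IgG and 248.7, 517.5 and 460.4 FPKM in BF10.

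Other T cell genes were read from lists of surface genes and transcription factors. Of 14 tested surface genes, BF10 against Ctrl-IgG called 2 higher and 0 lower, a share of higher genes near the 11.8% of all genes. They were Thy1, which fibroblasts also carry, with 1.45 (SE 0.39), and the interleukin-7 receptor Il7r with 0.79 (SE 0.25). In BF10 against aCSF1R, Il7r was called higher (1.00, SE 0.25) and the interleukin-2 receptor chain Il2rb lower (-1.67, SE 0.48). Of 10 tested transcription factors, Gata3, which epithelial cells also express, was called higher (2.75, SE 0.47) and Eomes, a factor of effector T and NK cells, lower (-1.86, SE 0.22) in BF10 against Ctrl-IgG. In BF10 against IL-10-Fc 0 genes of both lists were called, where 0.0126% of all genes were. The medians were 0.65 and 1.07, against 0.34 over all genes tested.

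The remaining cell type lists are given by their sums. Macrophage genes, led by Lyz2, were 508.4 to 1007 FPKM in Ctrl-IgG, 361.8 to 389.8 FPKM in aCSF1R, 1410 to 3425 FPKM in IL-10-Fc and 2043 to 2535 FPKM in BF10. Genes of plasmacytoid dendritic cells, led by Bst2, were 338.4 to 868.1, 761.5 to 857.0, 138.7 to 306.8 and 233.5 to 373.7 FPKM in the same order, and those of cross-presenting dendritic cells, led by Irf8, were 33.1 to 44.9, 37.3 to 40.1, 37.2 to 58.0 and 45.4 to 80.5 FPKM. The sum of the plasmacytoid list is mostly Bst2, and its genes did not move together: in BF10 against Ctrl-IgG, Tcf4 (1.74, SE 0.24), Klk1 (1.14, SE 0.37) and Siglech (1.11, SE 0.26) were called higher and Cox6a2 (-2.07, SE 0.46) and Bst2 (-1.25, SE 0.41) lower. Skeletal muscle genes reached 942.7 FPKM and keratinocyte genes 1798 FPKM in a Ctrl-IgG library, against at most 91.8 and 37.5 FPKM on the side of BF10. In these 5 lists 0 genes were called in aCSF1R against Ctrl-IgG and in BF10 against IL-10-Fc, where 0% and 0.0126% of all genes were.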

How the data were processed

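Stranded mRNA libraries of 12 tumours were sequenced on an Illumina NextSeq. Per the submitters' processing notes, STAR 2.7.5a, RSEM 1.3.3 and DESeq2 1.30.0 were used with mouse GRCm38 (mm10), and the authors deposited gene-level FPKM values of 55401 genes, normalized to length and library. No counts were analysed here. The authors' 4 tables of group comparisons (log2 fold changes and p-values) were not used.

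Genes that reached 1 FPKM in 3 or more libraries (15813) were transformed to log2(FPKM + 1), which understates the change of low genes, and fitted with limma 3.58.1 (R 4.3.3, group means over all 12 libraries, eBayes with trend). A gene was called at a Benjamini-Hochberg adjusted p under 0.05 over all genes tested and a change of at least 1.5-fold. The script was tested on data with known changes. Ratios within libraries were compared by 2-sided exact permutation tests over 20 assignments. GENCODE M21 (GRCm38) held 99.5% of the gene identifiers. Depth was estimated from the steps between low values of single-transcript genes of 400 to 600 bases, and covers counting error only. No pair of libraries was identical (0 pairs).

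Groups came from the treatment label, and replicate numbers name libraries only. The 10 genes and all lists were chosen with earlier results of these data known. Named list genes were those called, at most 4 per list and comparison, and the most abundant gene of a cell type list. A result on a listed surface gene is not reported here. Genes most like the 10 were the 12 with the highest r, leaving out predicted genes, receptor segments and genes averaging under 1 FPKM. Gamma constant genes are listed as Trgc in the file. Scalings, pseudocount, filters, covariates and left-out libraries were tried as alternatives.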

Additional observations from a re-analysis of the deposited data

How the results depend on the processing

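No paired analysis was possible because the labels number no replicates, and the groups compared share at most 1 of the codes in the titles. The counts of called genes, of 9, moved as follows from 0 (BF10 against IL-10-Fc), 0 (IL-10-Fc against Ctrl-IgG), 3 (BF10 against Ctrl-IgG), 4 (BF10 against aCSF1R) and 0 (IL-10-Fc against aCSF1R). Median-of-ratios size factors gave 2, 6 and 2, and quantile normalization 1, 6 and 2, for IL-10-Fc against Ctrl-IgG, BF10 against Ctrl-IgG and IL-10-Fc against aCSF1R, where all genes called moved from 5326, 3941 and 6669 to 5210, 4306 and 6020 and to 5459, 4638 and 6253. The log2 FPKM sum as a covariate gave 1 and 7 against Ctrl-IgG for IL-10-Fc and BF10, and 7 and 1 against aCSF1R for BF10 and IL-10-Fc. With this covariate all genes called by BF10 also went up, from 24.9% to 43.6% against Ctrl-IgG and from 25% to 42.6% against aCSF1R. No filter, which adds Cd4 to the genes tested, gave 2 for BF10 against aCSF1R, where 9.69% of all genes were called. A mean of at least 5 FPKM also gave 2, where 20.6% of all genes were called. Cd8a and Cd8b1, called in the main fit, did not reach that mean and were not tested there. Scaling to equal library sums, a pseudocount of 0.1 FPKM, a term for the title number and a fit of the compared groups alone moved no count of members by over 1.5 times.

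Leaving out 1 library gave 0 to 3 (BF10 against IL-10-Fc), 0 to 1 (IL-10-Fc against Ctrl-IgG), 2 to 6 (BF10 against Ctrl-IgG), 2 to 7 (BF10 against aCSF1R), 0 to 2 (IL-10-Fc against aCSF1R), 0 to 1 (averaged antibody part) and 0 to 1 (departure from the sum). The high ends came without BF10 replicate 1 and, in both IL-10-Fc comparisons with the other side, without its replicate 3. Without BF10 replicate 1, the shares of all genes called were 0.727%, 23.6% and 21.4% for BF10 against IL-10-Fc, Ctrl-IgG and aCSF1R. They were 0.31% for the averaged antibody part and 0.177% for the departure. Without IL-10-Fc replicate 3, 50.9% of all genes were called against Ctrl-IgG and 60.6% against aCSF1R. The counts of 2 for BF10 against aCSF1R came without aCSF1R replicate 1 or 3 or BF10 replicate 2 or 3, where 15.8% to 21.5% of all genes were called. Those of 2 for BF10 against Ctrl-IgG came with 16.5% to 21.9% of all genes called.

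Alternatives added after the data were seen moved more. Without the 4 libraries of high FPKM sum the counts were 2, 2, 8, 8 and 1 in the order above, and all genes called were 64, 6284, 6394, 6418 and 6354. With BF10 given by replicate 1 alone, whose spread is assumed to be that of the other groups, they were 0 against both Ctrl-IgG and aCSF1R (1851 and 2245 of all genes), and the log2 difference turned negative for Cd247 (-0.10 from IL-10-Fc, -0.76 from Ctrl-IgG, -0.86 from aCSF1R), Cd2 (-0.0028 from Ctrl-IgG, -0.15 from aCSF1R) and Cd3e (-0.22 from aCSF1R). With the B cell list as a covariate, BF10 against aCSF1R called 2 and Cd247 was -0.0934, -0.54 and -0.58 (from IL-10-Fc, Ctrl-IgG and aCSF1R). With 1 library left out, Cd247 ran from -0.0107 to 0.8546 against Ctrl-IgG and from -0.11 to 0.7569 against aCSF1R, lowest without BF10 replicate 2 and highest without BF10 replicate 1. The within-library difference of Cd8a and Cd4 between aCSF1R and Ctrl-IgG was -0.06, and from -0.255 to 0.27 when 1 library was left out, with 0.06 without Ctrl-IgG replicate 2. The cause of these changes was not tested.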
